A study of Mus musculus with 10 samples.

Results

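Gene expression in resting naive CD8+ T cells of Ikaros-Zn4-/- mice was compared with that in wild type (WT) cells. The comparison rests on the 4 unstimulated libraries of a series of 10, that is, the libraries labelled 0 min, with 2 per genotype, and covers the 12203 genes tested of the 12637 genes in the table. The cells came from spleens of female C57Bl/6 mice aged 6 weeks, were enriched by negative selection and were sorted as naive CD8+ cells, which carry little or no CD44. The 0 min cells were used directly after the sort. At 30 and 120 min, which serve here only to follow the same genes, cells had been kept on plate-bound antibodies to CD3 and CD28, with 2 libraries per genotype at 30 min and 1 at 120 min. Both genotypes went through the same sort, so the mutant cells are the naive-phenotype CD8+ cells that developed without normal Ikaros. The mutation is carried from the germ line, and the labels do not say whether the libraries of a group are from separate mice, so the p-values reflect no more than the differences among these libraries, which may be technical.

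Ikaros, encoded by Ikzf1, is a DNA-binding zinc finger protein of the lymphoid lineages. It is known both to repress and to activate genes, in part through the NuRD chromatin remodelling complex, and it acts at many steps of T and B cell development. Its N-terminal fingers bind DNA around the core GGGAA, and its C-terminal fingers pair Ikaros with itself and with its relatives. Finger 4 is the last of the N-terminal fingers. Naive CD8+ T cells are resting cells that keep effector genes such as those for granzymes low until their T cell receptor (TCR) is engaged.

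The bases that encode the lost finger are shown because they define the mutant. They lie in exon 7 of 9 of the transcript Ikzf1-203 (GENCODE M21, GRCm38), an exon of 123 bases at chr11:11758195-11758317 on the plus strand. From the first to the last zinc-binding residue, finger 4 takes up chr11:11758212-11758277 and finger 3, which is encoded in the exon before it, chr11:11754108-11754170. Capitals mark the 4 codons of the cysteines and histidines that hold the zinc ion.
Ikzf1 finger 3: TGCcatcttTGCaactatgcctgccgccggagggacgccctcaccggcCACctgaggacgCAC
Ikzf1 finger 4: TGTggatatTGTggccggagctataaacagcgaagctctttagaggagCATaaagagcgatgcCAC
The table gives 1 value per gene, so the absence of these bases from the mutant RNA could not be checked. The values of Ikzf1 as a whole gene (chr11:11685003-11772926, plus strand) are no test of the labels either. Ikzf1 was at 134 and 148 RPKM (reads scaled to gene length and library size) in the WT libraries and at 206 and 226 RPKM in the mutant libraries. Both mutant values were above both WT values. The difference was 0.61 ± 0.14 (SE) on the log2(RPKM + 1) scale and did not pass the test (limma, adjusted p = 0.0847). It passed after quantile normalization (adjusted p = 0.0411) and in limma-voom on recovered reads (adjusted p = 0.0117).

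The libraries at 0 min held 4.50 to 13.3 M reads, the shallowest being mutant replicate 2. Between the libraries of a group at 0 min, Pearson's r of log2(RPKM + 1), taken over genes that are not independent of each other, was 0.97 for WT and 0.962 for the mutant. The 13 listed markers of CD8 T cells were all measured and none passed the test, though limma-voom on recovered reads called Cd5 lower. Cd8a was at 390 and 436 RPKM in WT and 511 and 456 RPKM in mutant cells, and the sum over the list was 5110 and 5781 RPKM in WT and 6659 and 6296 RPKM in mutant cells. Cd44, which encodes a protein used in the sort, lay between 0.731 and 1.61 RPKM in the 4 libraries, and the genotypes overlapped.

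Far more genes were higher than lower in the mutant. Of the 12203 genes, 302 (2.47%) passed the test at an adjusted p below 0.05 in limma. Of these, 234 (1.92%) were higher and 68 (0.557%) were lower in mutant cells, and the 2 mutant values lay apart from the 2 WT values in every one of them. Non-overlap alone was common, with 24.9% of all tested genes higher and 20.6% lower in both mutant libraries. At an unadjusted p below 0.05 there were 954 higher and 747 lower genes. The median difference of all tested genes was 0.018 on the log2 scale. Here and below, differences are mutant minus WT on log2(RPKM + 1), which understates the fold change of genes of low RPKM. In bulk RNA, more cells of a type and more RNA per cell cannot be told apart.

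The higher genes were mostly ones with little RNA in WT cells. Their median was 1.59 RPKM in WT and 8.98 RPKM in mutant cells, 96 of the 234 had a WT mean under 1 RPKM, and 32 had a WT mean of at least 10 RPKM. The lower genes started from higher levels, with a median of 10 RPKM in WT and 3.17 RPKM in mutant cells. Of the 68 lower genes, 16 had a mutant mean under 1 RPKM. The contrast in WT levels follows in part from the filter and from the direction of the calls. Every gene analysed reached a mean of 1 RPKM in some group. Genes under 1 RPKM in resting WT cells were thus kept only through another group, such as the mutant. A called fall also needs a WT level high enough to fall from. Whether weakly expressed genes were more prone to rise cannot be decided from this contrast. Differences of at least 2-fold were reached by 200 of the higher and 50 of the lower genes, and of at least 4-fold by 63 and 5.

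**Figure D1:**
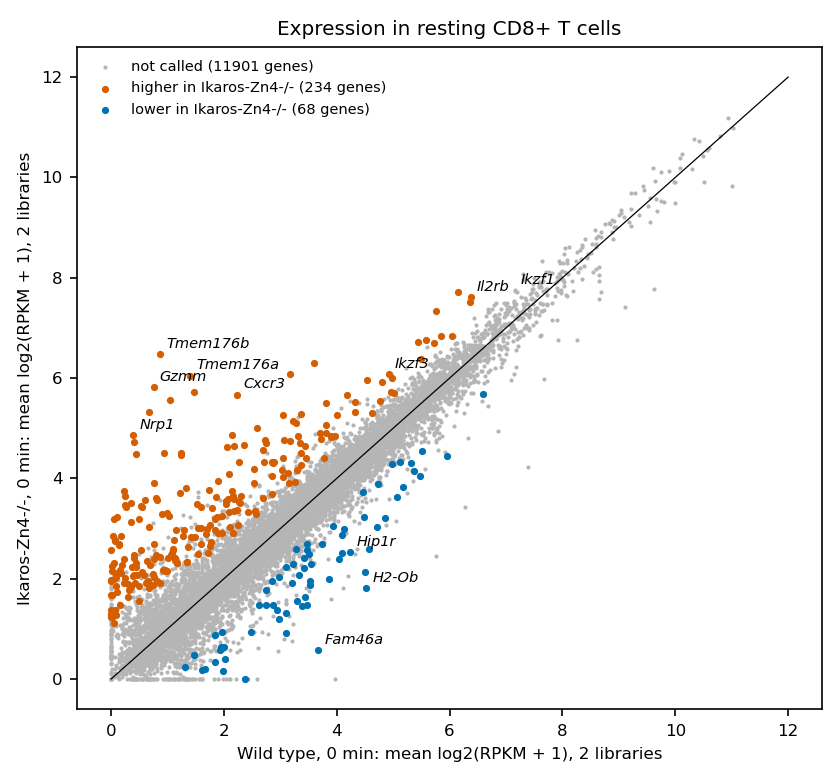
Mean log2(RPKM + 1) of the 2 mutant libraries (vertical axis) against the 2 WT libraries (horizontal axis) for the 12203 genes tested at 0 min, with the 234 higher genes in orange, the 68 lower genes in blue and the line of equal level in black. The higher genes reach 5.62 above the line and crowd at the low end of the WT axis, while the lower genes reach 3.08 below it.

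The counts depended on single libraries and on the test. With 1 library left out, 108 genes passed without WT replicate 1, 105 without WT replicate 2, 149 without mutant replicate 1 and 118 without mutant replicate 2, all at 0 min, and 194 and 193 without WT replicates 1 and 2 at 30 min, which enter through the shared estimate of the spread. There were 70 higher and 9 lower genes that passed in each of the 8 fits without 1 library of the 0 or 30 min groups. With the spread taken from the 4 libraries at 0 min alone, 85 higher and 11 lower genes passed, and limma-voom on reads recovered from the RPKM steps called 421 higher and 214 lower. With the spread from the 4 libraries at 0 min, the 15 largest rises and 4 of the 15 largest falls below kept their calls. Of the other list genes described below as called, Ikzf3, Il18r1, Il2rb, Gzma, Itgb3, Sema4f, Spry2 and Igkc kept theirs and the rest lost them, while Tnfsf11 was called in addition.

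The largest rise was in Tmem176b (chr6:48833818-48841496, minus strand), which encodes a membrane protein with several membrane spans. It was at 0.818 and 0.824 RPKM in WT and 85.7 and 91.1 RPKM in mutant cells, a ratio of 108 in mean RPKM and a log2 difference of 5.62 ± 0.18 (SE, adjusted p = 5.45e-05). Its head-to-head neighbour and relative Tmem176a (chr6:48840919-48847071, plus strand) was at 1.25 and 2.11 RPKM in WT and 66.1 and 64.3 RPKM in mutant cells, a difference of 4.65. Both genes were near the floor in WT cells and over 60 RPKM in both mutant libraries. Their gene models overlap by 578 bases on opposite strands and the library kit does not mark strand, so reads of the shared stretch cannot be assigned to either gene.

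Nrp1 (chr8:128358604-128503363, plus strand), which encodes neuropilin 1, a co-receptor of semaphorin 3A and vascular endothelial growth factor, was at 0.363 and 0.267 RPKM in WT and 28.2 and 28 RPKM in mutant cells (difference 4.47 ± 0.13 SE, adjusted p = 5.45e-05). The mutant libraries agreed closely, and neither came near the WT level. Cd163l1, a scavenger receptor known from gamma delta T cells, was at 0.917 and 0.326 RPKM in WT and 44.8 and 34.2 RPKM in mutant cells. Pcsk1, a protease that cuts prohormones, was at 0.69 and 1.49 RPKM in WT and 37.7 and 56.2 RPKM in mutant cells. Mmp14, a membrane-bound matrix metalloprotease, was at 0.143 and 0.52 RPKM in WT and 23.5 and 27.3 RPKM in mutant cells. In each of these genes the lower mutant value was over 20 RPKM and the higher WT value under 2 RPKM.

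Several signalling and cytoskeletal genes followed. Gucy1b3, a subunit of soluble guanylate cyclase, the receptor of nitric oxide, rose from 0.229 and 0.104 RPKM in WT to 11.9 and 13.1 RPKM in mutant cells, a difference of 3.53. Cacnb3, a subunit of voltage-gated calcium channels, was at 0.149 and 0.216 RPKM in WT and 8.8 and 15.2 RPKM in mutant cells. Pdlim4, an actin-associated adaptor, was at 1.86 and 1.67 RPKM in WT and 42.1 and 64.3 RPKM in mutant cells. The septin gene Sept8 was at 1.41 and 1.31 RPKM in WT and 22.3 and 20.9 RPKM in mutant cells. The remaining genes of the 15 largest rises were Gzmm, Cxcr3 and Cd74, described below, and Tmem204 and Pyroxd2, with differences of 4.04 and 3.24. All 15 passed the test under each of the 19 alternative settings, with adjusted p at most 0.00592 for Tmem176b and 0.0184 for Gzmm. The highest adjusted p among the 15 was 0.0381, for Cacnb3.

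The largest fall was in Fam46a (chr9:85320439-85327348, minus strand), which encodes a non-canonical poly(A) polymerase. It was at 11.5 and 11.9 RPKM in WT and 0.763 and 0.273 RPKM in mutant cells, a difference of -3.08 ± 0.20 (SE, adjusted p = 0.000492). Its relative Fam46c, chosen after its values were seen, was at 22.8 and 27.8 RPKM in WT and 7.25 and 7.14 RPKM in mutant cells, a difference of -1.68. H2-Ob (chr17:34238903-34254414, plus strand), the beta chain of H2-O, which restrains peptide loading of MHC class II, was at 23.2 and 20.6 RPKM in WT and 3.28 and 1.9 RPKM in mutant cells (difference -2.70, adjusted p = 0.00167). In these genes the mutant cells kept low but detectable RNA.

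Oasl1, a relative of the oligoadenylate synthetases, was at 9.25 and 9.66 RPKM in WT and 1.67 and 1.79 RPKM in mutant cells, a difference of -1.94 ± 0.17 (SE). Gpr174, a receptor for lysophosphatidylserine, was at 6.38 and 7.33 RPKM in WT and 1.12 and 1.44 RPKM in mutant cells. Fam46a, H2-Ob, Oasl1 and Gpr174 passed under each of the 19 alternatives. Acsbg1, an acyl-CoA synthetase, was at 7.98 and 7.15 RPKM in WT and 1.27 and 0.554 RPKM in mutant cells, and Rgs11, a regulator of G protein signalling, was at 11.5 and 8.77 RPKM in WT and 2.09 and 1.48 RPKM in mutant cells. Both passed without each of the 8 libraries but not with the spread from the 4 libraries at 0 min (adjusted p = 0.0557 and 0.0527). Tnfrsf25, the death receptor for the TNF family ligand TL1A, was at 9 and 10.7 RPKM in WT and 2.54 and 1.76 RPKM in mutant cells (adjusted p = 0.00436, and 0.0507 without WT replicate 2 at 0 min). Hip1r, which links clathrin coats to actin, was at 18.5 and 17.2 RPKM in WT and 4.02 and 5.61 RPKM in mutant cells, and lost its call without WT replicate 1 or 2 at 0 min, with an adjusted p of up to 0.0602.

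The other 7 of the 15 largest falls rested on weaker evidence. Rhob, a small GTPase gene with early response kinetics, was at 36.5 and 12.8 RPKM in WT and 3.41 and 3.4 RPKM in mutant cells (adjusted p = 0.0472). Its WT libraries differed from each other by more than the lower of them differed from the mutant ones on the RPKM scale, and it passed in 1 of the 8 fits without a library, that without WT replicate 2 at 0 min. Lcn4 passed only without mutant replicate 1 at 0 min, RP23-12D3.5 in none of these fits, and RP24-392K18.1 and Gabrr2 lost their call when any 1 of the 4 libraries at 0 min was left out. RP23-307A6.1 lost it also without either mutant library at 30 min. Mir140 was listed at 0 in both mutant libraries and at 5.32 and 3.21 RPKM in WT, which is 4 and 2 reads on a short gene model, and it lost its call when any 1 library at 0 min or WT library at 30 min was left out. The highest adjusted p over these fits was 0.179 for Rhob, 0.211 for Lcn4, 0.221 for RP23-12D3.5, 0.153 for RP24-392K18.1, 0.144 for Gabrr2, 0.183 for RP23-307A6.1 and 0.241 for Mir140.

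**Figure D2:**
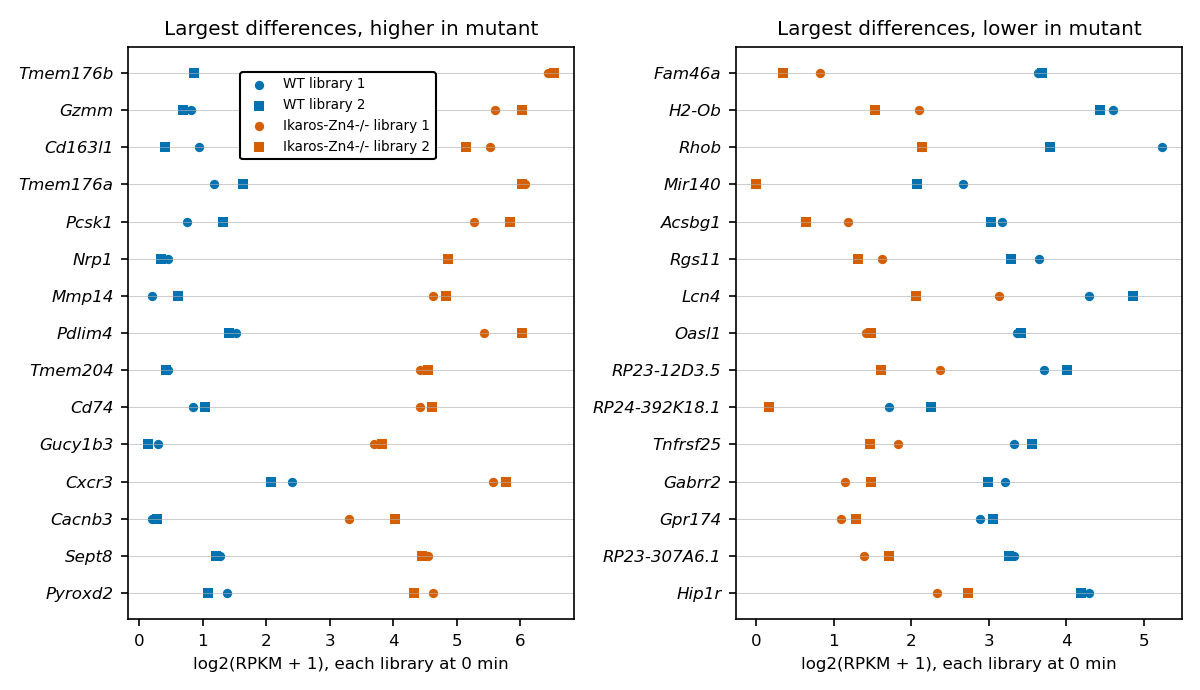
Level of the 15 genes with the largest rise (left) and the 15 with the largest fall (right) in each library at 0 min, on the log2(RPKM + 1) scale, with WT in blue, Ikaros-Zn4-/- in orange and the replicate given by the symbol. WT and mutant points are apart in every row, the gap is wider on the left, and the WT points of Rhob lie far from each other.

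Relatives of Ikaros can pair with it, and some of them have similar DNA-binding fingers. Of the 5 family genes, Ikzf1 itself among them, 3 rose and none fell, beside 1.92% and 0.557% of all tested genes. Differences in the list ran from -0.005 to 1.42. The median difference was 1.15 against 0.018 for all tested genes. Ikzf3 (Aiolos) was at 28.8 and 29.7 RPKM in WT and 69.7 and 63 RPKM in mutant cells (difference 1.15 ± 0.11 SE, adjusted p = 0.00332) and passed without each of the 8 libraries. Ikzf2 (Helios) was at 2 and 2.06 RPKM in WT and 8.14 and 6.19 RPKM in mutant cells, a difference of 1.42. Ikzf4 (Eos) was at 1.03 and 0.845 RPKM in WT and 2.95 and 4.19 RPKM in mutant cells, a difference of 1.23. The call of Ikzf2 was lost without WT replicate 1 or 2 at 0 min (adjusted p up to 0.0602), and that of Ikzf4 when any 1 of the 8 libraries was left out (up to 0.172). Per length, Ikzf1 RNA remained the most abundant of the family in both genotypes.

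Genes of effector and memory T cells held the most calls of any list. Of 32 listed genes 25 were tested, and Gzmk, Klrg1, Klrc1, Klrc2, Cx3cr1, Zeb2 and Fasl were not in the table. Of the 25, 7 rose, 1 fell and 17 did not pass, where 1.92% of all tested genes rose and 0.557% fell. The median difference was 0.55. The list was chosen with earlier results of these data known, so these shares only describe its members. Gzmm (chr10:79689020-79695261, plus strand), a granzyme of cytotoxic granules, was at 0.759 and 0.611 RPKM in WT and 47.6 and 64.1 RPKM in mutant cells, a difference of 5.06 ± 0.23 (SE, adjusted p = 0.000215). Cxcr3, the receptor that brings T cells to interferon-induced chemokines, was at 4.3 and 3.18 RPKM in WT and 46.4 and 53.7 RPKM in mutant cells, a difference of 3.43. Il18r1, a chain of the interleukin 18 receptor, was at 8.74 and 7.37 RPKM in WT and 74.3 and 60 RPKM in mutant cells, a difference of 2.91. These 3 genes, low in both WT libraries, passed without each of the 8 libraries.

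The interleukin 2 and 15 receptor chain Il2rb was already well expressed in WT cells, at 81 and 82.4 RPKM, and reached 189 and 203 RPKM in mutant cells (difference 1.25, adjusted p = 0.00527). The T-box factor Eomes was at 9.39 and 6.82 RPKM in WT and 23 and 28.6 RPKM in mutant cells, a difference of 1.57. Tbx21, which encodes T-bet, was at 1.53 and 0.904 RPKM in WT and 3.92 and 4.46 RPKM in mutant cells. The mutant values of all 3 genes lay above those of WT. Gzma, another granzyme, was listed at 0.212 and 0 RPKM in WT and at 5.3 and 5.56 RPKM in mutant cells. The integrin chain Itga4 fell, from 32.5 and 34.9 RPKM in WT to 19.1 and 18.8 RPKM in mutant cells. Without 1 library, the list's higher calls numbered 3 (without WT replicate 2 at 0 min) to 6. Il2rb lost its call without WT replicate 1 or 2 at 0 min (adjusted p up to 0.0578), Eomes without WT or mutant replicate 2 at 0 min (up to 0.0611), Itga4 when any 1 of the 4 libraries at 0 min was left out (up to 0.147), Gzma when any 1 of those or of the WT libraries at 30 min was left out (up to 0.229), and Tbx21 when any 1 of the 8 was left out (up to 0.192).

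Receptors for homing, adhesion and guidance showed 5 higher, 1 lower and 25 not passing of 31 tested, again beside 1.92% and 0.557% of all tested genes, with a median of 0.23. Cxcr3, Nrp1 and Itga4 are given above. Itgb3, the integrin beta 3 chain, was at 4.81 and 3.49 RPKM in WT and 25.8 and 23 RPKM in mutant cells, a difference of 2.31 ± 0.17 (SE), and passed without each of the 8 libraries. Sema4f, a membrane semaphorin, was at 9.61 and 9.94 RPKM in WT and 24.4 and 24 RPKM in mutant cells. Entpd1, the ectoenzyme CD39, was listed at 0.0334 and 0 RPKM in WT and at 1.75 and 2.71 RPKM in mutant cells. Sema4f lost its call when any 1 of the 4 libraries at 0 min was left out (adjusted p up to 0.0727) and Entpd1 without WT replicate 1, WT replicate 2 or mutant replicate 2 at 0 min (up to 0.113).

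Genes that type I and II interferons induce moved in both directions. Of 42 tested, 5 rose, 1 fell and 36 did not pass, beside 1.92% and 0.557% of all tested genes, with a median of 0.10. The fall was in Oasl1 (above). Oasl2 rose from 4.56 and 3.36 RPKM in WT to 11.3 and 11.7 RPKM in mutant cells, and Igtp, an immunity-related GTPase, from 74.9 and 88.2 RPKM to 176 and 191 RPKM. Parp14, Oas1a and Ifih1, which encodes the RNA sensor MDA5, rose by 0.67, 1.28 and 0.79. The higher calls numbered 0 without WT replicate 2 or without mutant replicate 2 at 0 min, 1 without WT replicate 1 or mutant replicate 1 at 0 min or either WT library at 30 min, and 2 without either mutant library at 30 min, while Oasl1 passed in every one of these fits. The members of the Oas family are similar in sequence, so reads may be split between them.

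Lists of genes that set the threshold or strength of TCR signalling held single calls or none, where 2.47% of all tested genes were called. None of the 30 tested genes of the TCR complex and proximal signalling passed, and the median was 0.12. Without overlap, 16 of the 30 lay higher and 4 lower in the mutant libraries, beside 24.9% and 20.6% of all tested genes. Cd5, a negative regulator of TCR signals, was at 124 and 122 RPKM in WT and 74.7 and 87.9 RPKM in mutant cells (adjusted p = 0.127). Limma-voom on recovered reads called Cd5 lower and Lat higher. Among 27 negative regulators of TCR signalling, Cd200r1 rose, from 0.778 and 0.443 RPKM to 2.43 and 2.62 RPKM (adjusted p = 0.0462, a call lost when any 1 of the 8 libraries was left out, with up to 0.236). Cd6 was at 123 and 118 RPKM in WT and 76.8 and 78.1 RPKM in mutant cells (adjusted p = 0.0595), and Pdcd1, which encodes PD-1, at 0.482 and 0.525 RPKM in WT and 2.6 and 2.3 RPKM in mutant cells (adjusted p = 0.0631). Limma-voom and the fit to gene models of at least 300 bases called Cd6 lower and Pdcd1 higher. Cd6 was also called lower with quantile normalization, with scaling by the median ratio and with a replicate block. Of 14 feedback regulators of MAP kinases, Spry2, a Sprouty protein that dampens receptor signals to Ras, rose from 0.179 and 0.378 RPKM in WT to 6.83 and 8.73 RPKM in mutant cells, a difference of 2.78, and passed without each of the 8 libraries.

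The remaining signalling lists held 1 or 2 calls each or none, where 2.47% of all tested genes were called. Socs3, a feedback inhibitor of cytokine receptors, was the 1 call among 19 JAK, STAT and SOCS genes, at 54.3 and 40 RPKM in WT and 99.2 and 117 RPKM in mutant cells. Rcan3, a regulator of calcineurin, was the 1 call among 22 genes of calcium entry and NFAT, at 5.63 and 6.8 RPKM in WT and 11.5 and 12.4 RPKM in mutant cells (adjusted p = 0.0417), a call lost when any 1 of the 8 libraries was left out (up to 0.266). Among 26 cytokine receptors the calls were Il18r1 and Il2rb, and among 23 costimulatory and TNF receptors Tnfrsf25. The genotypes were apart in each of these genes. None of the 23 genes of the NF-kB pathway passed. Ifngr1, the interferon gamma receptor chain, was at 52.2 and 53.7 RPKM in WT and 24.3 and 26.8 RPKM in mutant cells without passing (adjusted p = 0.0735). Limma-voom on recovered reads and the fit to gene models of at least 300 bases called Ifngr1 lower. Socs3 lost its call without WT replicate 2, mutant replicate 1 or mutant replicate 2 at 0 min or either WT library at 30 min (adjusted p up to 0.124).

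Of 22 naive and quiescence genes, 1 rose, 1 fell and 20 did not pass, beside 1.92% and 0.557% of all tested genes. The median was -0.03. Without overlap, 10 of the 22 lay lower and 5 higher in the mutant libraries, beside 20.6% and 24.9% of all tested genes. Igfbp4, a binding protein of insulin-like growth factors found in naive T cells, was at 42.9 and 41.8 RPKM in WT and 85.9 and 128 RPKM in mutant cells. Tob1, an antiproliferative protein of resting T cells, was at 45 and 27.4 RPKM in WT and 16.1 and 11 RPKM in mutant cells (adjusted p = 0.0499). Tcf7 and Ccr7, which mark naive cells, were at 620 and 684 RPKM and 270 and 225 RPKM in WT, against 596 and 615 RPKM and 265 and 245 RPKM in mutant cells. Igfbp4 lost its call without WT replicate 1, WT replicate 2 or mutant replicate 2 at 0 min or either WT library at 30 min (adjusted p up to 0.164), and Tob1 passed only without WT replicate 2 at 0 min (otherwise up to 0.225).

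None of the 19 tested T lineage transcription factors passed, where 2.47% of all tested genes were called. At that share, lists as short as those of this paragraph would hold few calls or none. Their counts therefore say little about their members. Id3, an inhibitor of E proteins, was at 43.4 and 31.6 RPKM in WT and 8.92 and 16.4 RPKM in mutant cells, a difference of -1.54 (adjusted p = 0.0648). Gata3 was at 9.43 and 8.32 RPKM in WT and 12.8 and 16.2 RPKM in mutant cells (adjusted p = 0.0979). The NuRD complex, a chromatin partner of Ikaros, held 1 call. Of 13 genes of the NuRD complex, Mta3 fell, from 23.9 and 27.2 RPKM in WT to 12.5 and 15.2 RPKM in mutant cells (adjusted p = 0.0427), a call that was lost when any 1 of the 8 libraries was left out (up to 0.238), and the other 12 did not pass. None of 19 Polycomb and 16 SWI/SNF genes passed, with medians of 0.01 and 0.00. The Notch pathway, which Ikaros is known to restrain in thymocytes, had no call among 21 tested genes and a median of -0.01.

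Lists of cell metabolism and growth held single calls in a direction or none, where 2.47% of all tested genes were called. None of 31 cell cycle genes, 21 genes of glycolysis and glucose transport, 24 genes of MHC class I presentation and 8 GIMAP GTPases passed, with medians of 0.11, 0.06, 0.29 and -0.19. Among these, limma-voom on recovered reads called Cdkn1b lower and Eno1, Calr and Psmb8 higher. Among 23 apoptosis regulators Pmaip1, which encodes the BH3-only protein Noxa, rose from 8.27 and 3.49 RPKM in WT to 22.8 and 22.2 RPKM in mutant cells. Among 26 genes of sterol and lipid synthesis Elovl6, a fatty acid elongase, rose by 0.76. Insig1, which holds back sterol synthesis, was lower by a difference of -0.88. Without overlap, 13 of the 26 lay lower and 3 higher in the mutant libraries, beside 20.6% and 24.9% of all tested genes. Of the stem and progenitor genes only Dntt and Kit were tested, and Dntt, the terminal transferase of developing lymphocytes, rose from 2.84 and 3.54 RPKM in WT to 10 and 12 RPKM in mutant cells. Pmaip1 lost its call when 1 mutant library at 0 min or any 1 library at 30 min was left out (adjusted p up to 0.126), Dntt without WT replicate 1 or mutant replicate 2 at 0 min (up to 0.062), Elovl6 when any 1 of the 8 libraries was left out and Insig1 in 7 of the 8 fits (both up to 0.264).

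**Figure D3:**
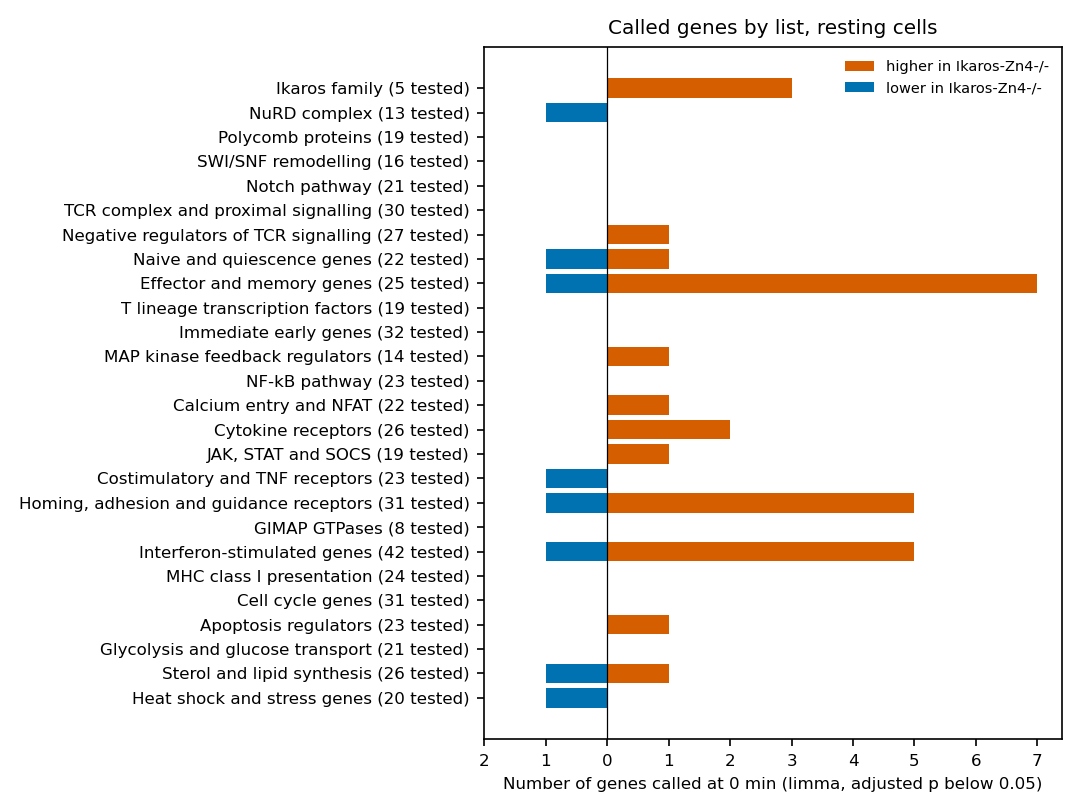
Number of genes called higher (orange, to the right) and lower (blue, to the left) in resting mutant cells in each gene list with at least 3 tested members, with the number tested beside the name. The effector and memory list has 7 higher calls, the homing and interferon lists 5 each, and 11 lists have none.

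Immediate early genes, which many stimuli induce within minutes, were lower in the mutant libraries in 17 of 32 cases without overlap (20.6% of all tested genes), and none passed the test. The median difference was -0.68. Fos was at 1259 and 498 RPKM in WT and 270 and 175 RPKM in mutant cells (adjusted p = 0.133). Junb was at 753 and 403 RPKM in WT and 107 and 268 RPKM in mutant cells, and Ier2 at 266 and 155 RPKM in WT and 40 and 97.5 RPKM in mutant cells. In these genes WT replicate 1 was the highest of the 4 libraries. Without WT replicate 1 the median of the list was -0.25, and without WT replicate 2 it was -0.98, with Egr1 passing. Limma-voom on recovered reads called 5 of the 32, Fos, Ier2, Jun, Junb and Zfp36, all lower.

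Heat shock genes shared this spread. Hspa1b was at 388 and 72 RPKM in WT and 12.5 and 25 RPKM in mutant cells, and its sequence is nearly that of Hspa1a, so reads may be split between them. Dnajb1 was at 316 and 187 RPKM in WT and 110 and 105 RPKM in mutant cells. Neither passed in limma (adjusted p = 0.18 and 0.142), while limma-voom on recovered reads called both lower, along with Sesn1, and called Xbp1 higher. Of the 20 genes, 1 was called, Sesn1, a stress-induced inhibitor of TORC1 signalling, which fell from 40.6 and 40.1 RPKM in WT to 19.5 and 14.5 RPKM in mutant cells. The median of the list was -0.38. At 0 min it was -0.20 without WT replicate 1, -0.64 without WT replicate 2 and -0.58 without mutant replicate 2. Sesn1 lost its call without WT replicate 1, WT replicate 2 or mutant replicate 2 at 0 min (adjusted p up to 0.11). The called genes Rhob and Tob1 showed the same order, with WT replicate 1 highest.

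**Figure D4:**
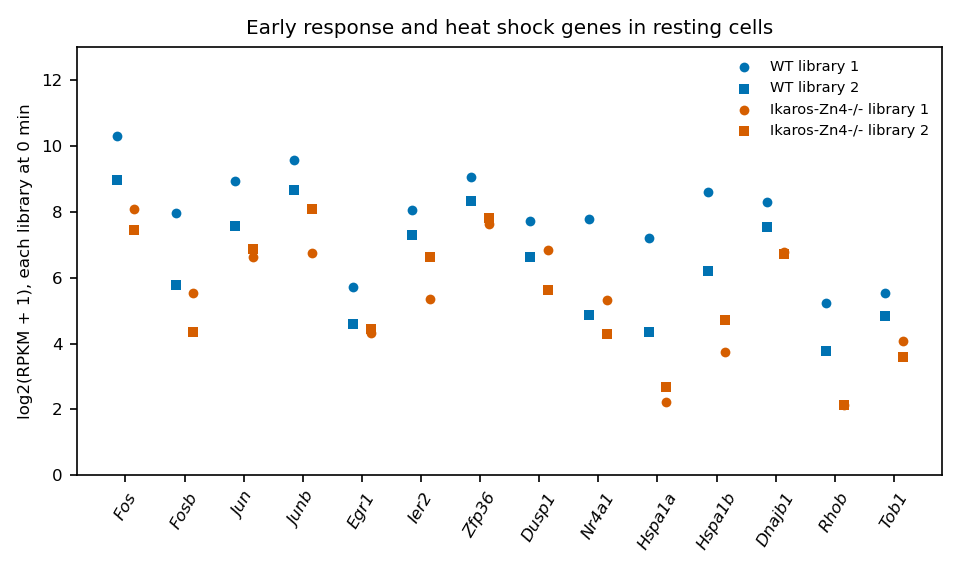
Level of immediate early and heat shock genes and of the called genes Rhob and Tob1 in each library at 0 min, on the log2(RPKM + 1) scale, with genes chosen for the plot after their values were seen. WT replicate 1 (blue circles) is the highest of the 4 libraries in every gene shown.

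Markers of other spleen cells were examined for their levels beside the called genes, and few of them were in the table. Of the 8 CD4 and regulatory T cell markers, 3 were tested and 2 of them, Ikzf2 and Ikzf4, were called higher, beside 1.92% of all tested genes. The summed level of the list was 16.5 and 5.90 RPKM in WT and 25.2 and 14.9 RPKM in mutant cells, and Cd4 and Foxp3 were not in the table. Of 13 natural killer cell markers only Gzma was tested (called higher), and the rest were not in the table. At 0.212 and 0 RPKM in WT, Gzma reached the table's group mean of 1 RPKM only through other groups, so its call says little about the list. Of 11 markers of gamma delta and innate-like T cells 3 were tested, and the rest were not in the table. Cd163l1 was called while the constant segments Tcrg-C2 and Tcrg-C4 overlapped between genotypes at 0.555 to 3.45 RPKM. Cd163l1 lay under 1 RPKM in both WT libraries and likewise reached the table's group mean only through other groups. Its call therefore says little about the list. The sum of that list was 2.05 and 3.34 RPKM in WT and 47 and 39.4 RPKM in mutant cells, most of it Cd163l1.

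Of 19 B cell markers 5 were tested. Cd74, the invariant chain of MHC class II, was at 0.793 and 1.04 RPKM in WT and 20.3 and 23.3 RPKM in mutant cells, a difference of 3.57, and the light chain gene Igkc at 0.577 and 0.348 RPKM in WT and 11.4 and 8.25 RPKM in mutant cells, a difference of 2.88. The other 3 tested genes of the list, Cd79a, Cd79b and Ighm, did not pass. Cd79a was at 0.192 and 0.309 RPKM in WT and 0.257 and 0.152 RPKM in mutant cells. Cd79b, part of the B cell receptor complex, was at 14.1 and 14.8 RPKM in WT and 9.75 and 6.36 RPKM in mutant cells, and Ighm was at 372 and 396 RPKM in WT and 304 and 270 RPKM in mutant cells. The summed level of the list was 387 and 413 RPKM in WT and 346 and 308 RPKM in mutant cells, and Ms4a1 and Pax5 were not in the table. Of 17 myeloid markers 6 were tested and none passed, with sums of 106 and 112 RPKM in WT and 132 and 145 RPKM in mutant cells. The part of other cells in the called genes was not tested. Outside the list and chosen after their values were seen, Cd72, a B cell surface receptor, was at 14.4 and 13.4 RPKM in WT and 28.5 and 26.9 RPKM in mutant cells (adjusted p = 0.0114), and Ighg2c was listed at 0 in both WT libraries and at 8.79 and 2.56 RPKM in mutant cells (adjusted p = 0.0355). Cd72 lost its call when any 1 library at 0 min was left out (up to 0.106), and Ighg2c passed only without mutant replicate 2 at 0 min (otherwise up to 0.201). Igkc lost its call without WT replicate 2 at 0 min (adjusted p = 0.0501) and with a pseudocount of 0.1 RPKM (0.0908), and Cd74 passed without each of the 8 libraries.

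The genes called at 0 min were followed at 30 min, where 319 genes were called (2.61%), 245 higher (2.01%) and 74 lower (0.606%). The 30 min libraries are separate from those at 0 min, though the spread comes from the same fit. All 234 higher genes were also above WT in the mean at 30 min (53.7% of all tested genes were), and in 232 the 30 min libraries did not overlap (25.6% of all tested). Of the 234, 177 were called higher again, which is 75.6% of the 0 min calls and 72.2% of those at 30 min. Of the 68 lower genes, 65 had the same sign (46.1% of all tested), 63 did not overlap (21.3%) and 38 were called again, 55.9% of the 0 min and 51.4% of the 30 min calls. Klhl36, Mir140 and Sfn were the 3 lower genes with the opposite sign at 30 min, and no gene was called in opposite directions.

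Tmem176b differed by 5.56 at 30 min, Nrp1 by 4.30, Gzmm by 4.68, Fam46a by -2.85 and H2-Ob by -2.55, each within 0.4 of its difference at rest. At 120 min, with 1 library per genotype and no test, 225 of the higher and 60 of the lower genes had the sign seen at rest, beside 48.8% and 49.8% of all tested genes. In 158 of the 234 higher genes (67.5%) every one of the 5 mutant libraries exceeded every WT library, against 2.7% of all tested genes, and in 28 of the 68 lower genes (41.2%) all 5 lay below, against 0.844%. These shares include the libraries at 0 min that gave the calls. Il2rb, with 1.25 at rest and 0.60 at 30 min (adjusted p = 0.0803), overlapped over all times.

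No gene passed the test of whether the genotype difference at 30 min differed from that at 0 min (limma, smallest adjusted p = 0.876). At an unadjusted p below 0.05 there were 656 genes, 17 of them among the 234 higher and 12 among the 68 lower genes, and limma-voom also called none. A p that misses the threshold does not show that the differences were the same at both times.

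**Figure D5:**
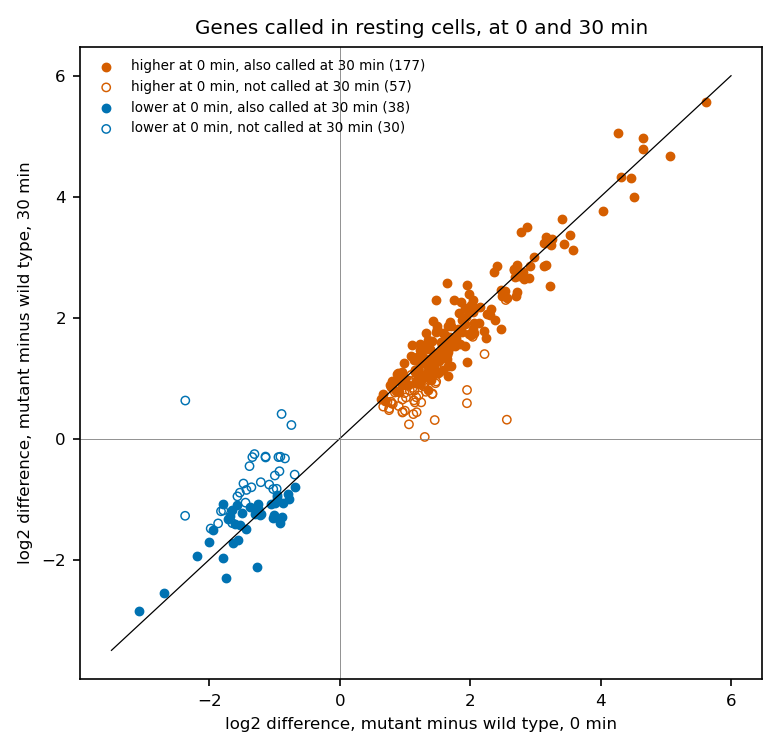
Difference between genotypes, mutant minus WT on log2(RPKM + 1), at 30 min (vertical axis) against 0 min (horizontal axis) for the 302 genes called at 0 min, filled where the gene was called in the same direction at 30 min. All 234 higher genes lie above 0 at 30 min and 3 of the 68 lower genes cross to the other side.

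Called genes sometimes lay next to each other. Among neighbouring tested genes within 50 kb, 19 pairs had both genes called, 13 with both higher and 6 with both lower, and no pair had opposite calls. Of the neighbours of called genes, 11.6% were called in the same direction, against 2.47% of all tested genes called in either direction. Gucy1b3 and Gucy1a3, the subunits of soluble guanylate cyclase, lie 17.7 kb apart on chromosome 3 and differed by 3.53 and 2.68. Evc and Evc2, which encode partner proteins of the primary cilium, differed by 2.14 and 1.38, and Cd163l1 lies between Olfr524 and 5830411N06Rik, with differences of 4.65, 3.16 and 2.48. Among the lower pairs, Tob1 and Wfikkn2 differed by -1.34 and -1.44, and Mta3 and Haao by -0.84 and -1.64. Of these genes, Gucy1b3, Cd163l1 and Evc passed without each of the 8 libraries, and the others lost their call in 2 (Gucy1a3) to 8 (Mta3) of the 8 fits. These pairs were chosen after their values were seen, and 2 of the 19 overlap, where reads of opposite strands cannot be told apart.

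Within 10 Mb of Ikzf1 on either side, the stretch most closely linked to the mutation, 2 of 117 tested genes were higher and 1 was lower, 2.56% in all. The higher genes were Plek and Lgalsl and the lower was Ddc. Ddc lost its call when any 1 of the 8 libraries was left out (adjusted p up to 0.251) and Plek without WT replicate 1 or 2 at 0 min (up to 0.0803), while Lgalsl passed in all 8 fits. The share was 2.47% over all chromosomes.

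The promoters of 4 genes with large differences are shown so that the DNA core bound by Ikaros, GGGAA, can be looked for in them. They are the 250 bases before and 50 bases after a start site listed in RefSeq (GRCm38.p6), written 5′ to 3′ on the gene's strand, with GGGAA or its reverse complement TTCCC in capitals. The windows are chr6:48841088-48841387 on the minus strand for Tmem176b, chr6:48841233-48841532 on the plus strand for Tmem176a, chr8:128358823-128359122 on the plus strand for Nrp1 and chr17:34238655-34238954 on the plus strand for H2-Ob. For Tmem176b the first of 3 listed starts and for Tmem176a the first of 2 was used, and these 2 windows overlap.
Tmem176b: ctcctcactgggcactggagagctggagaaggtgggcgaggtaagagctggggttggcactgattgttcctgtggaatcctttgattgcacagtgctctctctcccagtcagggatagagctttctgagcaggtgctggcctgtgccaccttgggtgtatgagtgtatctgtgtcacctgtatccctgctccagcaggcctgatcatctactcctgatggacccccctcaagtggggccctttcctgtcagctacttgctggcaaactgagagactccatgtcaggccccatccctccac
Tmem176a: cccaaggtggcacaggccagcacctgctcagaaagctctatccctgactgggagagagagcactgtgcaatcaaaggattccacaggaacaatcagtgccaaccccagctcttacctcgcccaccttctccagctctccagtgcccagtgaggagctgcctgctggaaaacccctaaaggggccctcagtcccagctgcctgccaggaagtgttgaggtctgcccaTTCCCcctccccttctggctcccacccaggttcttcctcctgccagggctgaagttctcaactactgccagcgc
Nrp1: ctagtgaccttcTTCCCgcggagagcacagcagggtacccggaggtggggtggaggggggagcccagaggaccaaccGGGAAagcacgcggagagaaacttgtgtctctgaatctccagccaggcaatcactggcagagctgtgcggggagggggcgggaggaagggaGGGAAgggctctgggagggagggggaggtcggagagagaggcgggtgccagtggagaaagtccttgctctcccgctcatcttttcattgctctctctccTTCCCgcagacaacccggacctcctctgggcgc
H2-Ob: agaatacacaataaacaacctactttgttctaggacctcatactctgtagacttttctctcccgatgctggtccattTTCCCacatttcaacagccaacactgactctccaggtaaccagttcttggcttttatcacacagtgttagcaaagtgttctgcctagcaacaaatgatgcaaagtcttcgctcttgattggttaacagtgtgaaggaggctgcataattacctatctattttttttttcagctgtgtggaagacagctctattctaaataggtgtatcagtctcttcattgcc
The Nrp1 window holds 4 matches, those of Tmem176a and H2-Ob 1 each, and that of Tmem176b none. Such a short core is common. GGGAA on either strand was found in 64% of the 7690 tested genes with a listed promoter, in 66.3% of the 163 higher genes with one and in 66.7% of the 48 lower genes with one. The longer TGGGAA was found in 22.6%, 22.7% and 31.3% of these promoters. A match is a description of the letters in the window and says nothing of binding.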

How the data were processed

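RNA of sorted CD8+ T cells was sequenced from single-end libraries made with a kit that does not mark strand, per the labels' protocols. The authors deposited RPKM values, 1 column per library. The submitters' processing notes name TopHat2 2.0.12, TopHat, HTSeq 0.6.1, mm10 and GRCm38. Neither their roles nor the gene lengths are given in the sources used here. Every gene in the table reached a group mean of 1 RPKM. Depth was recovered from steps in the deposited RPKM values with GENCODE M21 exon lengths (70 identifiers unmatched): 66.8% to 71.9% of values came out whole (tolerance 0.02 read), where chance gives 4%. At 4.50 to 13.3 M reads, 1 read on 1 kb is 0.222 to 0.075 RPKM.

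Limma 3.58.1 (R 4.3.3) was fitted to log2(RPKM + 1), a pseudocount of 1, of genes averaging 0.5 RPKM or more over 10 libraries, with a mean for each group (residual degrees of freedom: 4) and an intensity trend. P-values were two-sided, adjusted by Benjamini-Hochberg over all 12203 genes, with a threshold of 0.05. The 120 min libraries, 1 per genotype, were assumed to vary like the others. Named genes were Ikzf1, the 15 largest higher and 15 largest lower called genes, and from each list the called members or up to 4 with the smallest p, leaving out repeated symbols. Members and lists were chosen with earlier results of these data known. Alternatives were other pseudocounts, filters, scalings and spreads, a replicate block, limma-voom on recovered reads, leaving out each library and, added after seeing the data, gene models of at least 300 bases. Figures were made with Python 3.11.15 and matplotlib 3.10.9.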

Additional observations from a re-analysis of the deposited data

Results flagged for a closer look

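In 6 of the named genes both mutant libraries lay on one side of both WT libraries at 0 min and on the other side at 30 min. The difference between the times did not pass the test for any of them (limma interaction, adjusted p = 0.876 for each). Non-overlap was common, with 24.9% of all tested genes higher and 20.6% lower at 0 min, and 25.6% and 21.3% at 30 min. The share of all tested genes that changed sides was not counted, so the 6 genes are given by their values only. Mta1 differed by -0.19 at 0 min and 0.39 at 30 min, Id3 by -1.54 and 0.65, and Dusp10 by 0.75 and -0.77. Nfkbia differed by -0.44 and 0.14, Gapdh by -0.73 and 0.18, and Xbp1 by 0.77 and -0.34. For Dusp10, a phosphatase of stress-activated MAP kinases, the values were 27.1 and 28.2 RPKM in WT and 45.4 and 48.8 RPKM in mutant cells at 0 min, and 188 and 177 RPKM in WT and 125 and 91.2 RPKM in mutant cells at 30 min.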

How the results depend on the processing

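The number of genes called at 0 min, 302, fell to 96 with the spread from the 4 compared libraries and rose to 635 with limma-voom on recovered reads. Other alternatives gave 237 to 439. At 30 min 319 genes were called, 80 with the spread from the compared libraries, 549 with the replicate block and 612 with limma-voom. Leaving out 1 library gave 105 to 257 genes at 0 min, 86 to 227 at 30 min and 0 to 1 for the interaction (1 without WT replicate 2 at 0 min), which called none under every other alternative run. Fewer libraries leave fewer residual degrees of freedom. With the replicate block 439 genes were called at 0 min, Ikzf1 among them (adjusted p = 0.0167), but the numbers are not known to pair the samples: the 6 correlations of deviations between groups were 0.037 to 0.230. Reversals were limited to genes that were never called: mt-Nd5 (-0.0095 scaled by median ratios), and, leaving out 1 library, mt-Nd5 (-0.17 to 0.21), mt-Nd2 (-0.40 to 0.15), mt-Nd1 (-0.27 to 0.10), mt-Cytb (-0.26 to 0.13), Ctla4 (-0.69 to 1.25), Tcrg-C2 (-0.088 to 0.75) and Tcrg-C4 (-0.14 to 1.25). Depth limits low genes, since 1 read on 1 kb is 0.222 RPKM in mutant replicate 2.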

Other observations

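Further called genes in no list above are given here by their values, after which they were chosen. Ctnnd2, a catenin of the p120 family, was at 0.126 and 0.019 RPKM in WT and 8.52 and 8.22 RPKM in mutant cells, a difference of 3.13. Its relative Ctnnd1 was at 0 and 0.0154 RPKM in WT and 3.56 and 4 RPKM in mutant cells, and Ctnna1, alpha catenin, was at 5.09 and 6.42 RPKM in WT and 22.5 and 28 RPKM in mutant cells. Cdh1, which encodes E-cadherin, the membrane partner of these catenins, was at 0.224 and 0.443 RPKM in WT and 5.76 and 3.5 RPKM in mutant cells (adjusted p = 0.0263, a call lost when any 1 library at 0 min or WT library at 30 min was left out, with up to 0.181). All 4 genes were called higher at 30 min too. Igf1r, the receptor of insulin-like growth factor 1, was at 3.13 and 3.21 RPKM in WT and 24.9 and 22.7 RPKM in mutant cells, a difference of 2.57.

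Epas1, which encodes the hypoxia-inducible factor HIF-2 alpha, was at 0.526 and 0.487 RPKM in WT and 9.99 and 11.8 RPKM in mutant cells, a difference of 2.98. Lgals1, the lectin galectin 1, was at 70.4 and 70.2 RPKM in WT and 234 and 185 RPKM in mutant cells, a difference of 1.55. Ccr8, a chemokine receptor, was listed at 0 and 0.0973 RPKM in WT and at 2.85 and 3.84 RPKM in mutant cells. Lilrb4 and Gp49a, near-identical inhibitory and activating receptors whose reads may be split, were called higher by 3.17 and 2.71. The immunoglobulin gene Ighg2c, called at 0 min, was not called at 30 min (adjusted p = 0.766).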
